A study of Capra hircus with 12 samples.

Results

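Among the 20486 genes of the goat table, 91 (0.444%) had RNA in every younger embryo and much less of it in every embryo at E65. The embryos were cashmere goats (Capra hircus, of the Inner Mongolia breed per the study's methods), a breed kept for its fine undercoat. The only difference that the labels give between the groups is age: embryonic day 45 (E45), 55 (E55) or 65 (E65). There were 3 embryos at each stage, and no treatment or genetic change is listed. About a square centimetre of mid-flank skin was taken from each embryo and its polyadenylated RNA was sequenced as 1 library, so each of the 9 values of a gene belongs to a different animal. A gene was included when the smallest of its 6 values at E45 and E55 was at least 1 RPKM (reads scaled by gene length and by the number of aligned reads) and at least 2 times the largest E65 value plus 0.1 RPKM. The genes were thus chosen by their own RPKM values in these 9 embryos, so their drop at E65 is described below and not tested.

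At these ages the flank skin of a goat embryo changes from a simple covering into an organ that makes hair. The epidermis stratifies over a cell-rich dermis, and patches of epidermis thicken into placodes that exchange signals with dermal cells below them and grow into the primary hair follicles. Pieces of embryonic skin can also carry vessels, nerves, fat precursors and the thin muscle sheet under the dermis. Bulk RNA counts all of these cells at once, so fewer cells of a type and less RNA per cell cannot be told apart. The identifiers carry protein accessions or gene model numbers in place of symbols, and 0 of 20486 were found in the RefSeq gene table of goat assembly ARS1.2. No symbols were assigned here, and neither the tissue label nor any cell type was checked against marker genes. Genes are given by identifier or by the chromosome listed for them, and no function is assigned to any of them.

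"Shut off" would be too strong a name for most of these genes. All 3 E65 values were under 1 RPKM for 29 of the 91 genes (31.9%). Of the 16605 genes tested later, with a mean of at least 0.1 RPKM, 21.8% were that low. All 3 were under 0.5 RPKM for 15 of the 91 (16.5%; 15.2% of all tested genes). For none of the 91 were all 3 under 0.1 RPKM, against 3.79% of all tested genes. In 3 genes (3.30%) 1 of the E65 embryos was listed at 0, and 5.67% of all tested genes had at least 1 such embryo. The mean at E65 was 18.2% of the mean at E55 for the median gene, from 3.33% to 38.8%, and 14.2% of the mean at E45, from 0.919% to 28.2%. It was under 10% of the E55 mean for 23 genes and over 30% for 5. They are therefore described here as genes that were lower at E65.

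The limits of the rule cut through a continuous range. Having all E45 and E55 values at 1 RPKM or more was met by 11731 genes. Every E65 value lay below every younger value in 1677 of the 16605 genes tested for differences between stages (10.1%), and in the 91 by construction. The ratio of the smallest younger value to the largest E65 value plus 0.1 ran from 2 to 7.45 among the 91, with a median of 2.55. Exactly at the limit of 2 were 2 genes, on chromosomes 24 and 29, and the nearest outside it had ratios of 1.99 and 1.99. The smallest younger value of the genes just inside the floor was 1.02 and 1.04 RPKM, and of those just outside 0.93 and 0.89 RPKM, with 14 genes past the ratio but under the floor. Single embryos decided how many genes passed. Without E55-1 the rule was met by 222 genes, without E65-3 by 166 and without E65-1 by 137; the 91 are among them by construction, since leaving out an embryo can only loosen the rule.

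Summed over the 91 genes, the RNA came to 3644, 2395 and 3622 RPKM in E45-1, E45-2 and E45-3, to 2019, 3003 and 3696 RPKM in E55-1, E55-2 and E55-3, and to 488, 161 and 472 RPKM in E65-1, E65-2 and E65-3. Mean shares of all RPKM of an embryo, with the SD over 3 embryos, were 0.589% ± 0.140 for E45, 0.518% ± 0.150 for E55 and 0.0639% ± 0.0322 for E65. The sum is dominated by a few genes. A gene on chromosome 18 gave the largest part, between 25.4% and 46.5%, in 8 of the embryos, while in E65-2 it gave 10.8% and a gene on chromosome 12 gave the largest part, 21.0%. The median gene shows the typical level better. It stood at 10.6, 10.1 and 11.3 RPKM in the E45 embryos, at 5.98, 7.57 and 8.4 RPKM in the E55 embryos and at 1.39, 0.73 and 1.52 RPKM in the E65 embryos. The median was thus lower in each E55 embryo than in any E45 embryo, and lower again in each E65 embryo. When each gene was first centred on its mean log2 level over the 9 embryos, the medians were 1.09, 0.82 and 1.32 at E45 and 0.33, 0.72 and 0.91 at E55, so that E55-3 lay above E45-2 and only E65, at -1.38 or lower, stayed apart.

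**Figure D1:**
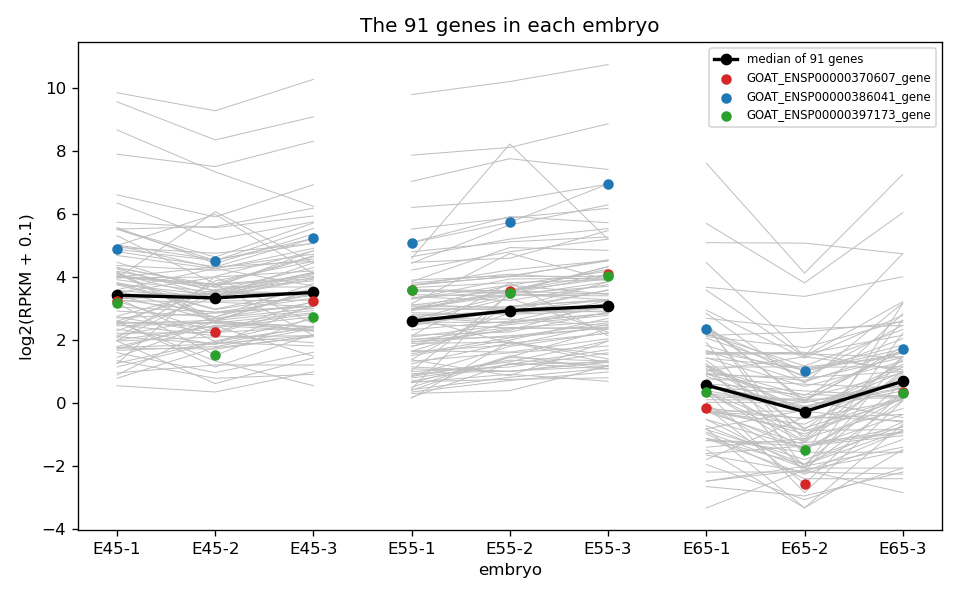
Level of the 91 genes in each of the 9 embryos as log2(RPKM + 0.1), with a grey line per gene within each stage, the median of the 91 genes in black and the 3 genes given by identifier in colour. The median lies between 10.1 and 11.3 RPKM in the E45 embryos, between 5.98 and 8.4 RPKM in the E55 embryos and between 0.73 and 1.52 RPKM in the E65 embryos, and many grey lines dip at E65-2.

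The gene with the largest drop from E55 to E65 on the log2(RPKM + 0.1) scale was GOAT_ENSP00000370607_gene on chromosome 6. It had 9.38, 4.64 and 9.36 RPKM in the E45 embryos, 12.1, 11.8 and 17.0 RPKM in the E55 embryos and 0.81, 0.07 and 1.18 RPKM in the E65 embryos. It was thus higher in every E55 embryo than in any E45 embryo and then had the lowest values at E65. Its mean log2 level dropped by 4.54 between E55 and E65. That it ranked first rested on E65-2, whose log2 difference from the mean of the other 2 E65 embryos was -2.67. The next was GOAT_ENSP00000386041_gene on chromosome 10, whose mean log2 level dropped by 4.24 and in which E65-2 differed by -1.02. Its values were 29.4, 23.0 and 37.5 RPKM at E45, 34.1, 53.4 and 124 RPKM at E55 and 4.97, 1.92 and 3.2 RPKM at E65. The E55 embryos differed widely from each other here, and E55-1 lay among the E45 embryos. The third gene given by identifier, GOAT_ENSP00000397173_gene on chromosome 21, had the largest rise from E45 to E55 of the 91. It went from 8.98, 2.76 and 6.63 RPKM to 12.0, 11.1 and 16.4 RPKM, and then to 1.19, 0.26 and 1.16 RPKM at E65. As for the gene on chromosome 6, every E55 value lay above every E45 value, so that E55 was the highest of the 3 stages.

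Of the 91 genes, 57 had a mean under 10 RPKM at E55, 26 had between 10 and 50 RPKM and 8 had 50 RPKM or more. The most abundant at E55 lay on chromosome 18. It had 924, 622 and 1239.6 RPKM at E45, 888, 1183 and 1718 RPKM at E55 and 197, 17.4 and 153 RPKM at E65. Even at E65 this gene was more abundant in E65-1 and E65-3 than most of the 91 were at any stage. A gene on chromosome 5 followed with 239, 182 and 318 RPKM, then 234, 278 and 467 RPKM, then 52.1, 14.0 and 65.9 RPKM. A less abundant gene, on chromosome 7, had 97.8, 60.1 and 122 RPKM, then 74.1, 86.1 and 124 RPKM, then 22, 2.72 and 26.8 RPKM. These 3 genes ranked the embryos of a stage in the same way at the ends: E45-2 was lowest and E45-3 highest at E45, E55-1 lowest and E55-3 highest at E55, and E65-2 lowest at E65. For all 3 the ranges at E45 and E55 overlapped.

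Of the 5 other genes of 50 RPKM or more, 2 did not share this order. Another gene on chromosome 18 had 408, 162 and 75.9 RPKM at E45 and 24.1, 300 and 36.6 RPKM at E55, with 5.49, 0.92 and 7.03 RPKM at E65. Its level at E55 rested on E55-2 alone. A gene on chromosome 12 declined at each step, from 757, 327 and 545 RPKM through 132, 217 and 171 RPKM to 34.1, 33.8 and 26.7 RPKM, with no overlap between stages and little difference among the E65 embryos. The other 3 were the one on chromosome 10 given above, a gene on chromosome 26 with 45.7, 23.0 and 46.7 RPKM, then 21.6, 50.5 and 78.4 RPKM, then 5.24, 0.97 and 3.1 RPKM, and a gene on chromosome 13 with 46.1, 24.8 and 52.6 RPKM, then 46.0, 58.9 and 72.6 RPKM, then 7.14, 1.46 and 8.93 RPKM. In these 3 genes the lowest and highest embryos of E45 and E55 and the lowest of E65 were those of the genes on chromosomes 5 and 7, and the ranges at E45 and E55 overlapped as well.

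The depth of the fall did not separate abundant from rare genes cleanly. The E65 mean was between 3.73% and 18.2% of the E55 mean in the 8 genes of 50 RPKM or more (median 9.78%), between 3.33% and 30.8% in the 26 genes of intermediate level (median 20.2%) and between 3.36% and 38.8% in the 57 genes under 10 RPKM (median 18.1%). The smallest remainder, 3.33%, belonged to a gene on chromosome 22 with 5.98, 11.7 and 11.1 RPKM at E45 and 0.34, 0.32 and 0.43 RPKM at E65. At E55 it had 1.28 RPKM in E55-1 against 11.3 and 20.1 RPKM in the others, so that E55-1 lay nearer to the E65 embryos than to its own stage. The largest remainder, 38.8%, belonged to a gene on chromosome 20. Its values were 16.1, 12.8 and 12.8 RPKM at E45, 6.63, 7.58 and 7.36 RPKM at E55 and 2.84, 2.86 and 2.66 RPKM at E65, which is a tight and stepwise decline.

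The 3 E65 embryos did not carry these genes at the same residual level. E65-2 was the lowest of its stage in 68 of the 91 genes (74.7%), against 36.3% of all tested genes, and the highest in 5. To measure this, the log2(RPKM + 0.1) of an embryo was compared with the mean of the other 2 embryos of its stage. For E65-2 the median of this difference was -0.80 over the 91 genes, with quartiles of -1.51 and -0.22, while over all 16605 tested genes it was -0.03. The difference was -1 or lower in 39 genes (42.9%; 4.48% of all tested genes) and -2 or lower, a quotient of 4 or more, in 16 genes (17.6%; 1.46% of all tested genes). The rule used the largest E65 value, which came from E65-3 in 52 genes and from E65-1 in 32. All tested genes had to meet no such limit at E65, so the rule may set part of these differences. Without E65-2 the rule was met by 104 genes. In the original 91 genes, the median log2 difference between E65 and E55 without E65-2 was -2.09 in place of -2.41.

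The 16 genes with the deepest E65-2 value had a median of 3.10 RPKM in E65-1 and 3.63 RPKM in E65-3, against 0.335 RPKM in E65-2. The gene with the widest gap, on chromosome 2, had 28.1, 19.99 and 37.3 RPKM at E45, 27.8, 34.7 and 38.7 RPKM at E55, and 5.54, 0.21 and 8.88 RPKM at E65. A gene on chromosome 9 had 3.73, 0.14 and 4.57 RPKM at E65 after 9.99, 11.7 and 19.97 RPKM at E55. The most abundant gene on chromosome 18 and the genes on chromosomes 5 and 7 that shared its order of embryos belong here too, as does GOAT_ENSP00000370607_gene. Among the 8 genes of 50 RPKM or more at E55 there were 5 of the 16, among the 57 genes under 10 RPKM there were 4. In the other 75 genes the medians were 1.19, 0.76 and 1.28 RPKM in E65-1, E65-2 and E65-3.

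Embryos of the younger stages also stood apart in these genes. The rule used the smallest of these 6 values, and all tested genes had to meet no such rule, so it may set part of these differences. At E55, E55-1 was lowest in 71 of the 91 genes (78.0%; 24.6% of all tested genes) and E55-3 highest in 66 (72.5%; 24.9% of all tested genes). The median log2 difference from the other 2 embryos was -0.51 for E55-1 and 0.44 for E55-3, where all tested genes gave 0.07 and -0.06. At E45, E45-2 was lowest in 50 genes (54.9%; 16% of all tested genes) and E45-3 highest in 53 (58.2%; 28.1% of all tested genes). Here the median differences were -0.27 for E45-2 and 0.29 for E45-3, against 0.20 and 0.00 over all tested genes. The rank of E45-2 was thus opposite to its rank in the table as a whole, where it tended to be high.

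**Figure D2:**
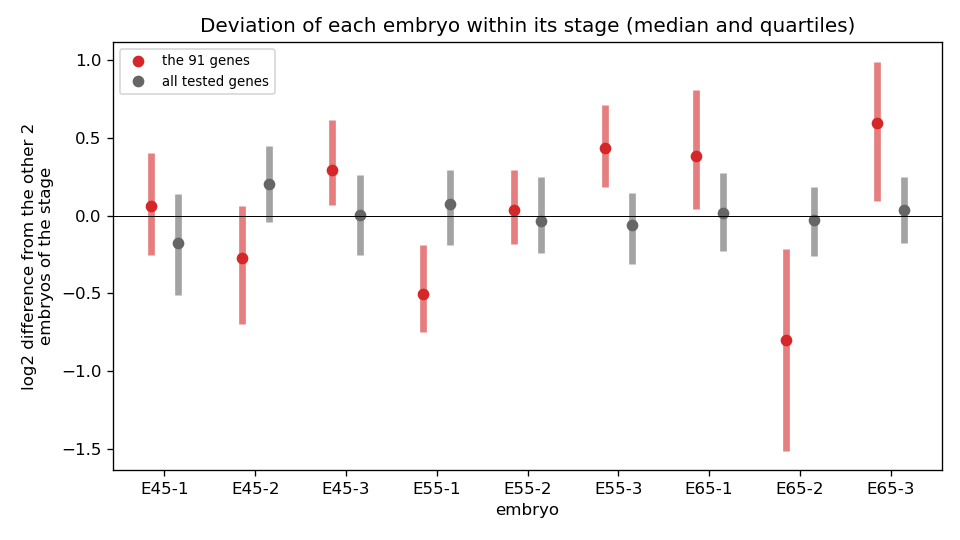
Difference in log2(RPKM + 0.1) of each embryo from the mean of the other 2 embryos of its stage; dots are medians over genes and bars run between the quartiles, for the 91 genes in red and all 16605 tested genes in grey. The 91 genes lie low in E65-2 (-0.80), E55-1 (-0.51) and E45-2 (-0.27) and high in E65-1 (0.38) as well as in E65-3, E55-3 and E45-3, while the grey medians stay between -0.18 and 0.20.

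The rule sets E45 and E55 together against E65 and does not compare them with each other, but it used the smallest of their 6 values. The values of the 91 genes in E55 vs. E45 are therefore not independent of how the genes were chosen, and their counts and p-values are given as a description. The 91 genes were fitted with all 16605 genes of a mean of at least 0.1 RPKM by limma on log2(RPKM + 0.1), in 1 fit of the 9 embryos, and all 91 passed that filter. With Benjamini-Hochberg adjustment over all tested genes, an adjusted p under 0.05 and a change of at least 1 on the log2 scale, 3 of the 91 genes were decreased in E55 vs. E45 (3.30%) and none was increased. Of all tested genes 0.494% were decreased and 0.397% increased. At an unadjusted p under 0.05 there were 27 of the 91 genes (29.7%), against 18.5% of all tested genes.

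The 3 decreased genes were followed up although the rule for named genes does not list them. The gene on chromosome 25 had 22.1, 11.5 and 10.6 RPKM at E45, 2.28, 3.67 and 2.8 RPKM at E55 and 0.98, 0.97 and 0.63 RPKM at E65. Most of its decline came before E55, and limma gave a change of -2.24 ± 0.33 on the log2 scale (estimate ± standard error, adjusted p = 0.0344). Another gene on chromosome 6 went from 47.5, 21.5 and 41.2 RPKM to 7.87, 13.3 and 10.9 RPKM and then to 1.93, 2.68 and 1.99 RPKM. Its change by limma was -1.73 ± 0.31 (adjusted p = 0.0429). The third was the abundant gene on chromosome 12 given above, with a change by limma of -1.60 ± 0.29 (adjusted p = 0.0430). None of the 3 was low in E65-2, whose log2 difference from the other E65 embryos was 0.27, 0.43 and 0.16 in these genes.

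These calls lay close to the threshold, and most fits that left out 1 embryo lost some or all of them. Over the 20 other settings of the fit, the gene on chromosome 25 was called in 13, the gene on chromosome 12 in 8 and that on chromosome 6 in 7, with adjusted p-values from limma of up to 0.103, 0.138 and 0.139, and all 3 stayed lower at E55 throughout. By limma no gene of the 91 was called without E45-2, E45-3, E55-1, E55-3, E65-1 or E65-3. In the same order, the calls over all tested genes were 0%, 0.0786%, 0.024%, 0.451%, 0.0541% and 0.102%. In the fits without E65-1 or E65-3 the log2 fold changes of the 3 genes were unchanged (-2.24, -1.73 and -1.60). Only their adjusted p-values from limma were higher, from 0.0551 to 0.0815. Without E45-1, 10 of the 91 were called (11.0%), against 7.32% of all tested genes.

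The shares and medians that follow set chosen genes beside all tested genes, which had to meet no such rule and reach down to a mean of 0.1 RPKM, so the rule may set part of any difference. The fitted log2 fold change in E55 vs. E45 was below 0 in 72 of the 91 genes (79.1%), against 64.5% of all tested genes. Its median was -0.40, with quartiles of -0.89 and -0.15, and over all tested genes it was -0.12. The scaling between embryos moves both medians. With median scaling they were -0.23 and 0.05, and with quantile normalization -0.19 and 0.03, so that the median of the 91 genes minus that of all tested genes was -0.28 as deposited, -0.28 with median scaling and -0.22 with quantile normalization. Single embryos moved this difference more than the scaling did: it was -0.48 without E45-2, -0.43 without E55-3 and -0.15 without E55-1. In 27 of the 91 genes (29.7%) every E55 embryo was below every E45 embryo, against 14.1% of all tested genes, and in 3 (3.30%) every E55 embryo was above, against 7.12%. The 27 genes were therefore lower at each of the 2 steps without overlap between stages. The 3 were the genes on chromosomes 6 and 21 given by identifier and a gene on chromosome 14 with 4.22, 3.59 and 4.36 RPKM at E45, 5.85, 5.79 and 7.09 RPKM at E55 and 0.92, 0.91 and 1.52 RPKM at E65.

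None of the 3 genes with every E55 embryo above every E45 embryo passed the test in E55 vs. E45. The change by limma on the log2 scale was 1.22 ± 0.55 for GOAT_ENSP00000397173_gene (adjusted p = 0.276), 0.85 ± 0.66 for GOAT_ENSP00000370607_gene (adjusted p = 0.537) and 0.61 ± 0.25 for the gene on chromosome 14 (adjusted p = 0.227). GOAT_ENSP00000386041_gene, at 1.05 ± 0.47 (adjusted p = 0.270), did not pass either.

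**Figure D3:**
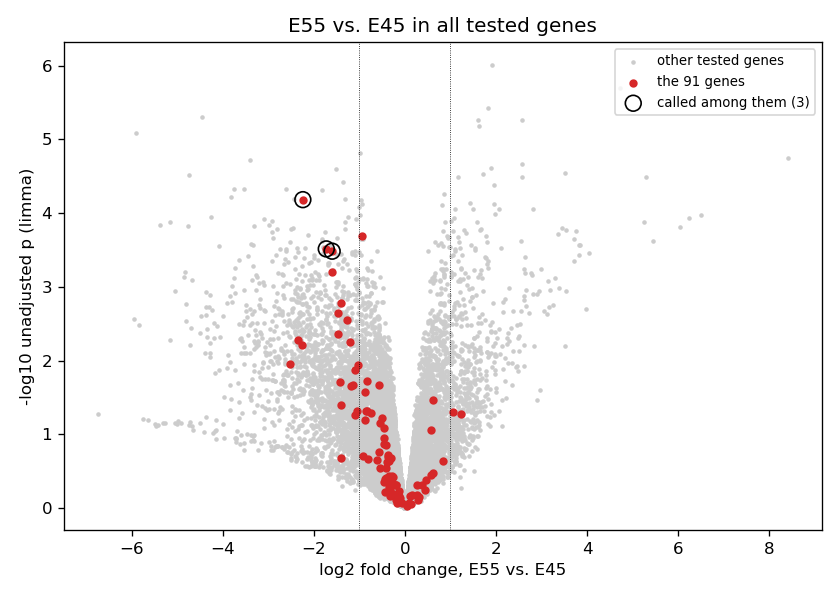
Log2 fold change in E55 vs. E45 (x axis) against -log10 of the unadjusted p from limma (y axis) for all tested genes, with the 91 genes in red, the 3 called ones ringed and dotted lines at a change of 1 in either direction. Most red points (72 of 91) lie left of 0, and the 3 ringed genes are all on that side.

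The 91 genes can also be split by their level in E65-2, as a description only, since the rule used all 9 values and thereby ties how high the E65 embryos may be to how low the younger ones are. The 16 genes that were deepest in E65-2 had a median log2 fold change of 0.11 in E55 vs. E45, and 10 of them were higher at E55. The other 75 genes had a median of -0.45, and 66 of them were lower at E55. The sign of the first median rested on single embryos, since it was -0.08 without E45-2 and -0.11 without E55-3, and 0.19, 0.32, 0.27 and 0.20 without E45-1, E45-3, E55-1 and E55-2, whereas that of the 75 genes stayed between -0.64 and -0.37 when any of the 9 embryos was left out. All 27 genes that were lower at each step without overlap were among the 75. The 16 genes were chosen after their values had been seen, so no test was made between the sets. Within the 16 genes E55-3 was highest in 15, E55-1 lowest in 13 and E45-2 lowest in 13, and in the 75 genes these numbers were 51, 58 and 37.

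**Figure D4:**
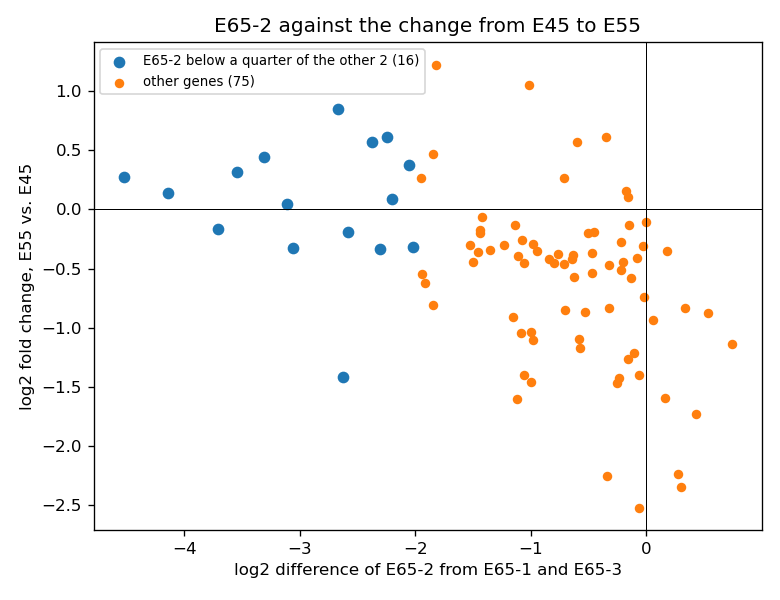
Difference of E65-2 from the other 2 E65 embryos in log2(RPKM + 0.1) (x axis) against the log2 fold change in E55 vs. E45 (y axis) for each of the 91 genes, with the 16 genes at -2 or lower on the x axis in blue and the other 75 in orange. The blue points lie around 0 on the y axis (median 0.11) and the orange ones mostly below it (median -0.45), in genes that the rule chose on both sets of values.

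The 3 largest differences between E45 and E55, picked out after the values had been seen, belonged to genes that varied much within E45. A gene on chromosome 9 had 2.29, 16.2 and 28.4 RPKM in the E45 embryos and 1.04, 2.32 and 2.02 RPKM in the E55 embryos, so that E45-1 lay among the E55 values. A gene on chromosome 22 went from 4.14, 14.6 and 22.6 RPKM to 1.47, 2.63 and 2.42 RPKM and was listed at 0, 0.13 and 0.25 RPKM at E65. In a gene on chromosome 10, E45-2 stood out with 67.4 RPKM against 15.5 and 21.8 RPKM, before 2.53, 8.41 and 9.47 RPKM at E55. With limma the log2 fold changes of these genes were -2.52, -2.34 and -2.25, larger than that of the called gene on chromosome 25 in each case, but their adjusted p-values were 0.139, 0.106 and 0.113.

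The 91 genes were spread over 28 of the 30 chromosomes in the table. Chromosome 14 held the most, 8 of its 495 genes (1.62%), and chromosome 27 had the highest share, 5 of 254 (1.97%). On chromosomes 4, 20 and 22 there were 5 each. Chromosomes 19 and 23, with 1136 and 629 genes, held none. Positions within a chromosome are not in the table, so whether any of these genes are neighbours was not analysed here. By the form of the identifier, 33 of the 91 were of the ENSBTAP form (36.3%, against 42.5% of all genes), 44 of the ENSP form (48.4%, against 39.2%) and 14 of the GLEAN form (15.4%, against 18.3%). An ending of -D and a digit, whose meaning is not given in the sources used here, was found in 6 of the 91 (6.59%) and in 4.68% of all genes, among them the called genes on chromosomes 12 and 25.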

How the data were processed

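Skin RNA of 9 goat embryos was analysed. According to the study's methods, reads were quality filtered (FASTX-Toolkit), mapped with TopHat (TopHat2 in the submitters' processing notes) and kept only where they had a single location, which can undercount genes with near-identical copies. The authors deposited RPKM, rounded to 2 decimals. The genome build is not given in the sources used here. The table holds no read numbers; library totals listed in the study's supplement were not used here, and counts were not recovered from the values (0.01 RPKM, the rounding step, was the smallest value above 0 in 17.3% of 1762 low genes). Values summed to between 537791 and 602169 RPKM per embryo. The small RNA table was not used.

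The rule was applied to the deposited values, and genes exactly at a limit were included. E55 vs. E45 was tested on log2(RPKM + 0.1), which understates changes of low genes, by limma 3.58.1 (R 4.3.3) with a mean-variance trend and no covariate, and the script was checked on simulated data. Named genes were the 2 with the largest drop from E55 to E65 and the 2 with the largest rise from E45 to E55 (1 gene was both). Alternatives were other pseudocounts, filters, scalings, variance settings, a replicate block and leaving out each embryo. Python 3.11.15, pandas 2.3.3, numpy 2.4.6, scipy 1.17.1 and matplotlib 3.10.9 were used. The genes, lists and tests were chosen with earlier results of these data known.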

Additional observations from a re-analysis of the deposited data

How the results depend on the processing

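The number of genes meeting the rule was 272 with a fold of 1.5, 28 with a fold of 3 and 32 with an offset of 1 RPKM, because these change the limit itself, and it ran from 95 to 222 with 1 embryo left out. The median log2 difference of the 91 genes with pseudocount 1 was -1.76 for E65 against E55 and -2.21 for E65 against E45, and with 1 embryo left out it ran from -2.62 to -2.09 and from -3.22 to -2.38. Of the 91 genes, limma called 1 (1.10%) in E55 vs. E45 without the filter on low values, against 0.478% of all tested genes. It called 1 with median scaling (1.10%; 1.42% of all tested genes) and 1 without the mean-variance trend (1.10%; 0.62% of all tested genes). Under sample weights it called 10 (11.0%; 6.55% of all tested genes). When only the 6 embryos of these stages were fitted it called 0 of the 91, against 0.012% of all tested genes. With 1 embryo left out the number called ran from 0 to 10. The cause was not tested. The median log2 fold change in E55 vs. E45 was positive, 0.11, in the 16 genes deepest in E65-2, a set chosen after seeing the data, where it turned negative without E45-2 (-0.08) and without E55-3 (-0.11). Over the 91 genes it was negative in every setting, from -0.54 to -0.30 with 1 embryo left out. With no limit on the fold change, also added later, 4 of the 91 genes were called, against 1.05% of all tested genes.

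With the replicate number as a block, 2 of the 91 genes were called, against 0.59% of all tested genes. The labels pair no embryos by number, and deviations of same-numbered embryos from their stage means correlated with r from -0.30 to 0.41 over 9 pairs, 3 of them over 0.1. Between embryos with different numbers r ran from -0.53 (E45-3 with E55-2) to 0.47 (E45-1 with E55-2). Counts were not recovered from the RPKM values, so no counting error is given for values near 0 at E65.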
